A study of Caenorhabditis elegans with 6 samples.

Results

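The 10 genes described here encode aspartyl proteases of the cathepsin D type in the nematode Caenorhabditis elegans: asp-1, asp-2, asp-3, asp-4, asp-5, asp-6, asp-8, asp-10, asp-12 and asp-13. They were chosen by name, and all 10 were among the 46245 genes listed for each library. The choice was made because several abundant members differ between the 2 strains of the study, so every difference between strains in these 10 genes is given below as a description and carries no p-value.

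RNA of whole animals was sequenced at the late L4 stage, the end of larval life, after growth at 20 °C. Strain DCL289, called the ptr-8 strain here, carries 3 alleles, ptr-8(mkc18), eat-2(ad465) and acs-20(tm3232), and is written ptr-8 eat-2; acs-20 in the plots. Strain DCL33 carries eat-2(ad465) with acs-20(tm3232) and, per its labels, no ptr-8 mutation, and is written eat-2; acs-20 in the plots. Both strains thus share an eat-2 allele, of a gene for a pharyngeal acetylcholine receptor subunit whose mutants feed slowly, and an acs-20 allele, of a gene for an acyl-CoA synthetase. The comparison asks which transcripts differ when ptr-8, whose product is related to the Hedgehog receptor Patched, is mutated in that background, and which part of ptr-8 the allele removes is not given in the sources used here. There were 3 libraries per strain, and the labels do not say whether they came from separate cultures, so errors measure only the spread between libraries, which may be technical.

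Aspartyl proteases cut proteins with a pair of aspartate residues in the active site, and they work best in acid. Most are made as inactive precursors that mature in lysosomes or after secretion. In C. elegans the intestine is a main site of their expression, where they serve digestion and lysosomal breakdown. ASP-3 and ASP-4 are also known to carry out the necrotic death of degenerating neurons. The gene listed as asp-10 is now called hrg-7 and encodes a secreted protein known for heme signalling between the intestine and neurons.

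Levels are FPKM, that is fragments per kilobase of transcript relative to all mapped fragments of a library, divided by 1 scaling factor per library (0.872 to 1.33). Relative to replicate 1 of DCL33, the depth implied by the deposited intervals was 0.957 to 1.29 in the ptr-8 strain and 0.573 to 1.5 in DCL33, with replicate 3 of DCL33 the shallowest. Correlations of log2 levels across genes were 0.962 to 0.981 within the ptr-8 strain, 0.961 to 0.975 within DCL33 and 0.939 to 0.969 between strains. ptr-8 itself averaged 5.12 ± 0.596 in the ptr-8 strain and 21.8 ± 3.26 in DCL33 (SD, n = 3 each), and it was lower in the strain labelled as its mutant. The highest deposited FPKM of eat-2 was 0.205. Of 15206 genes tested with limma, 361 passed a Benjamini-Hochberg adjusted p of 0.05, 53 higher and 308 lower in the ptr-8 strain. Rises were 14.7% of these calls, against 27% on FPKM as deposited (66 higher, 178 lower), where the median log2 fold change of all genes was 0.105 in place of 0.007. The number called changed when 1 library was left out, in fits that also had fewer libraries to measure the spread. It was 103, 166 and 78 without replicates 1, 2 and 3 of the ptr-8 strain and 733, 113 and 92 without replicates 1, 2 and 3 of DCL33.

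The family lies mostly on chromosome V. Of 19 genes named asp in the files, 15 are on chromosome V, 3 on X and 1 on IV, and of the 10 members 8 are on V and 2, asp-3 and asp-4, on X. Positions are those of the files, raised by 1 to count from 1. The files name no build. In 9 of the 10 members both ends lie within 439 bp of the ends in the WBcel235 annotation. asp-6 (V, 8267546 to 8268937, minus strand), asp-12 (V, 8269254 to 8272058, plus strand), asp-5 (V, 8272375 to 8274047, plus strand) and asp-11 (V, 8274353 to 8275757, plus strand) stand in a row over 8212 bp. asp-6 and asp-12 point away from each other across 316 bp, asp-12 and asp-5 are 316 bp apart, and asp-5 and asp-11 are 305 bp apart. asp-11 is annotated as a pseudogene. asp-1 (V, 19049123 to 19050825, minus strand) is the last of 4 asp genes on 15111 bp, after asp-17, asp-16 and asp-15. asp-8 (V, 3024219 to 3027933) has asp-7 360 bp downstream.

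The remaining members stand alone. These are asp-13 (V, 8641491 to 8643225), asp-2 (V, 9199680 to 9205128), asp-10 (V, 12742041 to 12744170), asp-3 (X, 6791064 to 6792715) and asp-4 (X, 13218977 to 13221469). In the files asp-2 starts 3397 bp away from its start in WBcel235, so its FPKM rests on another gene model. The annotated proteins of the members are alike in length: 9 of them have 386 to 444 residues in every annotated form, and asp-10 has forms of 189 and 428. Exon number is not shared, from 1 in asp-1 to 7 in asp-13. How reads matching more than 1 of these related genes were counted is not stated, nor is strandedness. Reads within the overlaps of asp-2, asp-4 and asp-10 with inx-10, R12H7.4 and C15C8.7, on the other strand, can therefore not be told apart. A negative gap is an overlap, and the gaps were -426, -43 and -11 bp, in loci of 5449, 2493 and 2130 bp. inx-10 averaged 10.8 in the ptr-8 strain and 11.3 in DCL33, and R12H7.4 averaged 0.176 in the ptr-8 strain and 0.0699 in DCL33. C15C8.7 averaged 172 in the ptr-8 strain and 174 in DCL33, above asp-10 itself.

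asp-1, asp-2, asp-3, asp-5, asp-6 and asp-12, among them the genes of an intestinal protease (asp-1) and a necrosis protease (asp-3), were lower in the ptr-8 strain. asp-12 differed by far the most, asp-4 was slightly lower, and the 3 members left overlapped between strains. Summed over the 10 genes, the level was 7676, 9081 and 7607 in the ptr-8 libraries, against 15707, 18198 and 19205 in the DCL33 libraries. The sum in the ptr-8 strain was 45.9% of that in DCL33. It made up 0.408% to 0.545% of the summed level of tested protein-coding genes in the ptr-8 strain and 0.799% to 0.957% in DCL33. In these whole-animal samples, fewer cells of a type and less RNA per cell cannot be told apart. Of the 10 members 6 were called lower by limma, where 2.03% of all genes tested were, and none higher, where 0.349% were (0 members also at an unadjusted p below 0.05). Among the 3891 genes tested that were at least as abundant as asp-8, the least abundant member over all 6 libraries, 3.08% were called lower. In 7 of the 10 members every ptr-8 library lay below every DCL33 library, against 14% of all genes tested and 18.9% of the 3891. The reverse held for no member and for 13.7% of all genes tested, and groups without overlap in either direction made up 27.7%. Because the members were chosen on this contrast, nothing is read from these counts. The median log2 fold change was -0.85 over the members and 0.007 over all genes tested.

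The calls of members changed when 1 library was left out, in fits that also had fewer libraries to measure the spread. With 1 library left out, the members called numbered 2, 3 and 1 without replicates 1, 2 and 3 of the ptr-8 strain, where 0.552%, 0.921% and 0.408% of all genes tested were called lower. They numbered 6, 2 and 2 without replicates 1, 2 and 3 of DCL33, where 2.87%, 0.559% and 0.460% of all genes tested were. asp-12 was called in each of these 6 fits and asp-3 in 5, all but the one without replicate 3 of the ptr-8 strain. asp-6 was called in 2, those without replicate 2 of the ptr-8 strain or replicate 1 of DCL33. asp-1, asp-2 and asp-5 were called in 1 of the 6, the fit without replicate 1 of DCL33. On FPKM as deposited, 3 members were called (asp-3, asp-6 and asp-12), where 1.17% of genes were called lower. The log2 fold changes themselves moved little, and each of these 6 genes was lower in all 12 alternative fits.

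**Figure D1:**
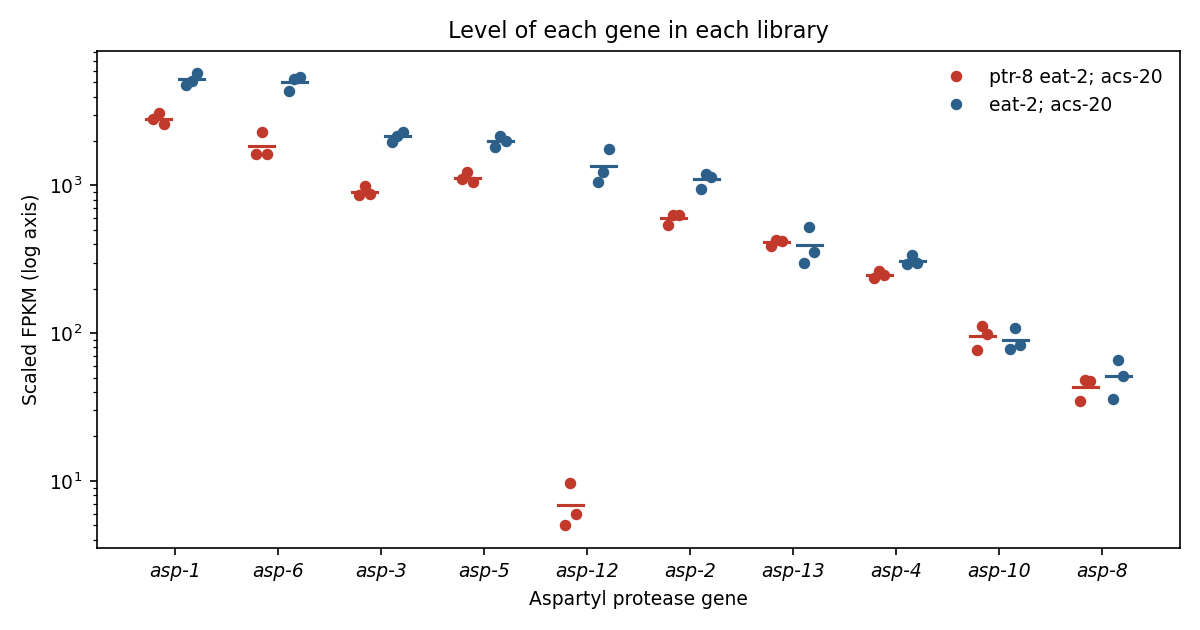
Scaled FPKM (log axis) of the 10 aspartyl protease genes in each library, ordered by their mean in DCL33 (eat-2; acs-20). Each point is 1 library and each line a mean over 3. asp-12 lies at 5 to 9.7 in the ptr-8 strain and at 1050 to 1753 in DCL33, while asp-13, asp-10 and asp-8 overlap.

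asp-12 had the lowest log2 fold change of all 15206 genes tested on the scale of log2(scaled FPKM + 1), which compresses genes of low level. As a ratio of means it was not the most extreme, since ech-9 differed 252-fold and spp-12 was listed at 0 in all 3 ptr-8 libraries. It was at 5, 9.7 and 5.96 in the ptr-8 libraries, against 1050, 1229 and 1753 in the DCL33 libraries. The groups were far apart, and the mean of the ptr-8 strain, 6.89 ± 2.48, was 0.513% of the 1344 ± 365 in DCL33, a 195-fold difference (log2 fold change -7.42, SE 0.28). Among 14431 tested protein-coding genes it ranked 10869th by level in the ptr-8 strain and 228th in DCL33. The reads left in the ptr-8 strain were not absent: the deposited intervals ran from 3.87 to 5.8, 11.5 to 14.3 and 4.13 to 6.26 FPKM, and imply about 101, 338 and 95.1 fragments. asp-12 was at 0.309%, 0.42% and 0.363% of asp-6 in the ptr-8 libraries, and at 24%, 23.2% and 32.1% of asp-6 in the DCL33 libraries. Whether these fragments came from asp-12 or from a similar gene cannot be told from gene-level FPKM, nor can a silent gene be told from one missing in the genome of the ptr-8 strain.

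The genes on either side of asp-12 were lower in the ptr-8 strain too, but stayed among the 3 most abundant members there. asp-6 was at 1621, 2310 and 1643 in the ptr-8 libraries, against 4383, 5292 and 5467 in the DCL33 libraries. The strains did not overlap, and the ptr-8 mean was 36.8% of that of DCL33 (log2 fold change -1.45, SE 0.19). asp-5 was at 1106, 1224 and 1058 in the ptr-8 libraries, against 1824, 2157 and 1992 in the DCL33 libraries. The strains again did not overlap, at 56.7% of the DCL33 mean (log2 fold change -0.82, SE 0.12). The pseudogene asp-11 lay at 0.505 to 0.613 in the ptr-8 strain and 0.421 to 1.44 in DCL33. Beyond these genes F21F8.5 averaged 4.02 ± 2.8 in the ptr-8 strain and 3.38 ± 0.412 in DCL33 (SD, n = 3 each). C16D9.9 was at 3.78 ± 3.88 in the ptr-8 strain and 5.85 ± 4.19 in DCL33. The receptor genes str-136 and str-135, on the other side, were listed at 0 in all 6 libraries and at 0.0511 to 0.558. Around all 10 members, the 3 nearest protein-coding genes on each side came to 48 distinct genes outside the list, of which 29 were tested. limma called none of the 29, where 2.37% of all genes tested were called in either direction. At an unadjusted p below 0.05 there were 11, where 20.6% of all genes tested reached that p, and the median log2 fold change of the 29 was -0.06.

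**Figure D2:**
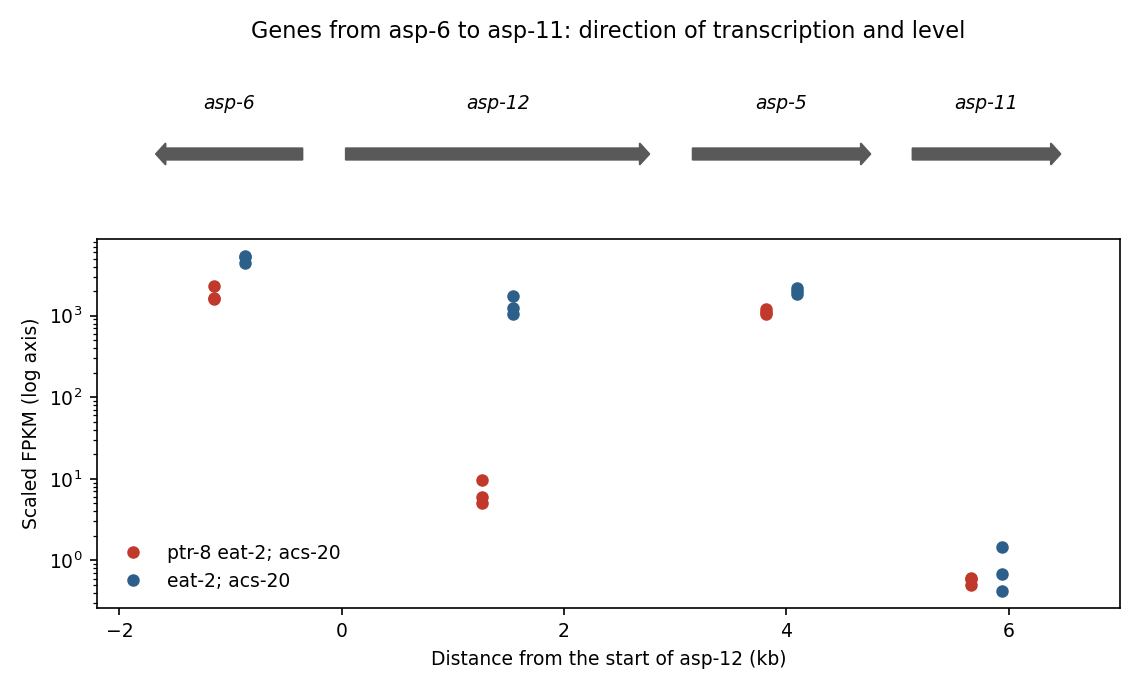
The 4 genes from asp-6 to asp-11 drawn to scale with arrows in the direction of transcription (top, distance from the start of asp-12 in kb), and their scaled FPKM in each library on a log axis (bottom). asp-6 and asp-5, on either side of asp-12, lie at 1058 or higher in all 6 libraries, and asp-11 at 1.44 or lower.

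Of all members asp-1 had the highest mean in both strains. asp-1, which encodes an intestinal protease, was at 2813, 3075 and 2589 in the ptr-8 libraries, against 4816, 5107 and 5743 in the DCL33 libraries. There was no overlap, and the ptr-8 mean was 54.1% of the DCL33 mean (log2 fold change -0.89, SE 0.14). asp-2 was at 537, 630 and 629 in the ptr-8 libraries, against 951, 1202 and 1149 in the DCL33 libraries. Its groups did not overlap either, at 54.4% of the DCL33 mean (log2 fold change -0.87, SE 0.13). asp-5 and asp-1 stayed close to a fixed proportion, asp-5 being 39.3%, 39.8% and 40.9% of asp-1 in the ptr-8 libraries and 37.9%, 42.2% and 34.7% in the DCL33 libraries. asp-6 did not: it was 57.6%, 75.1% and 63.5% of asp-1 in the ptr-8 libraries, and 91%, 104% and 95.2% in the DCL33 libraries. These proportions within a library do not depend on the scaling factors.

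The pair of proteases known from neuronal necrosis differed in size of change. asp-3 was at 857, 985 and 870 in the ptr-8 libraries, against 1976, 2178 and 2314 in the DCL33 libraries. The strains were well apart, at 41.9% of the DCL33 mean (log2 fold change -1.25, SE 0.12). asp-4, a cathepsin D-like protease, was at 235, 262 and 246 in the ptr-8 libraries, against 294, 337 and 298 in the DCL33 libraries. Its groups did not overlap, but the difference was small, at 80% of the DCL33 mean (log2 fold change -0.32, SE 0.10), and it was not called. asp-3 was 3.53 to 3.76 times asp-4 in the ptr-8 libraries and 6.47 to 7.76 times asp-4 in the DCL33 libraries.

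The 3 members left overlapped between strains. asp-13 was at 391, 425 and 422 in the ptr-8 libraries, against 299, 523 and 356 in the DCL33 libraries. Its spread was narrow in the ptr-8 strain, a coefficient of variation of 4.56%, and wide in DCL33, 29.6%. asp-10, the heme signalling gene hrg-7, was at 76.7, 112 and 98.1 in the ptr-8 libraries, against 78.5, 108 and 82.8 in the DCL33 libraries. asp-8 was at 34.5, 47.8 and 47.1 in the ptr-8 libraries, against 35.9, 66.1 and 51.1 in the DCL33 libraries. Log2 fold changes were 0.11 (SE 0.21) for asp-13, 0.09 (SE 0.19) for asp-10 and -0.21 (SE 0.25) for asp-8. The sign was not settled for asp-13, which was at -0.06 without replicate 1 of DCL33, nor for asp-10, at -0.04 without replicate 2 of the ptr-8 strain and -0.0027 without replicate 1 of DCL33.

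**Figure D3:**
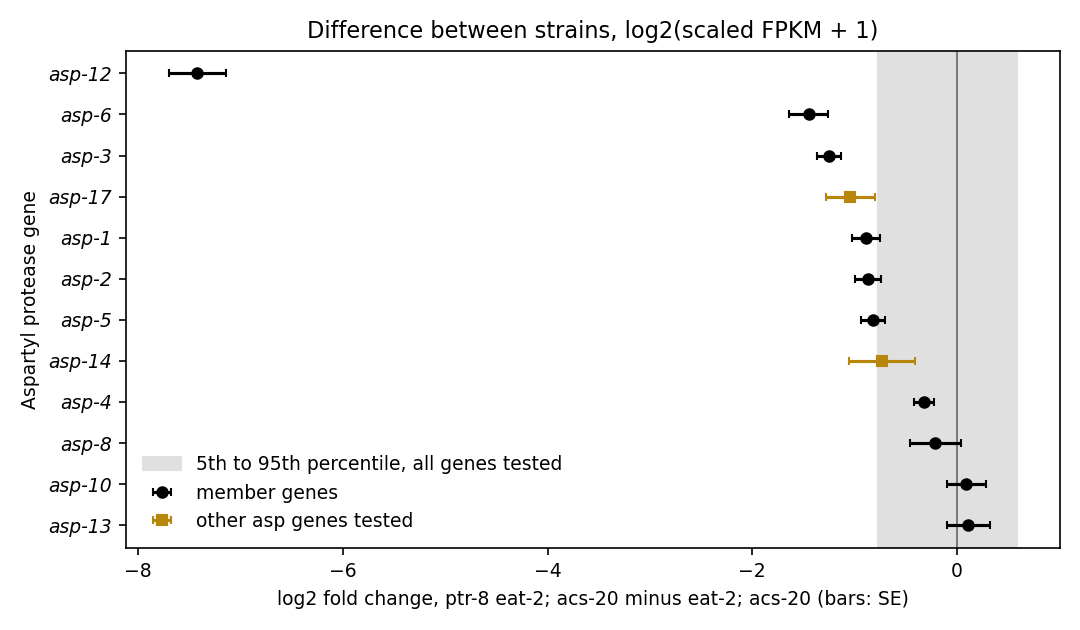
Log2 fold change (ptr-8 strain minus DCL33, whose genotypes the axis names, on log2 of scaled FPKM plus 1) with its SE for the 10 members (circles) and the 2 other asp genes that were tested (squares). The grey band spans the 5th to the 95th percentile of all genes tested, -0.77 to 0.59. asp-12 stands at -7.42 and the next member, asp-6, at -1.45.

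The order of levels within the family differed between strains in the place of asp-12, and asp-3 and asp-5 changed places. In the ptr-8 strain it ran asp-1, asp-6, asp-5, asp-3, asp-2, asp-13, asp-4, asp-10, asp-8, asp-12, and no 2 neighbours in this order overlapped over the 3 libraries. In DCL33 it ran asp-1, asp-6, asp-3, asp-5, asp-12, asp-2, asp-13, asp-4, asp-10, asp-8. There the libraries overlapped between asp-1 and asp-6 (5222 ± 474 and 5047 ± 582), asp-3 and asp-5, asp-12 and asp-2, and asp-13 and asp-4. Within each of the 3 DCL33 libraries, though, asp-3 was above asp-5, asp-12 above asp-2 and asp-13 above asp-4, while asp-1 was above asp-6 in 2 of 3. As shares of the summed level, asp-1 took 33.9% to 36.6% in the ptr-8 libraries and 28.1% to 30.7% in the DCL33 libraries. asp-6 took 21.1% to 25.4% in the ptr-8 libraries and 27.9% to 29.1% in the DCL33 libraries. asp-12 took 0.0652% to 0.107% in the ptr-8 libraries and 6.69% to 9.13% in the DCL33 libraries. asp-13 took 4.68% to 5.55% in the ptr-8 libraries and 1.86% to 2.87% in the DCL33 libraries.

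**Figure D4:**
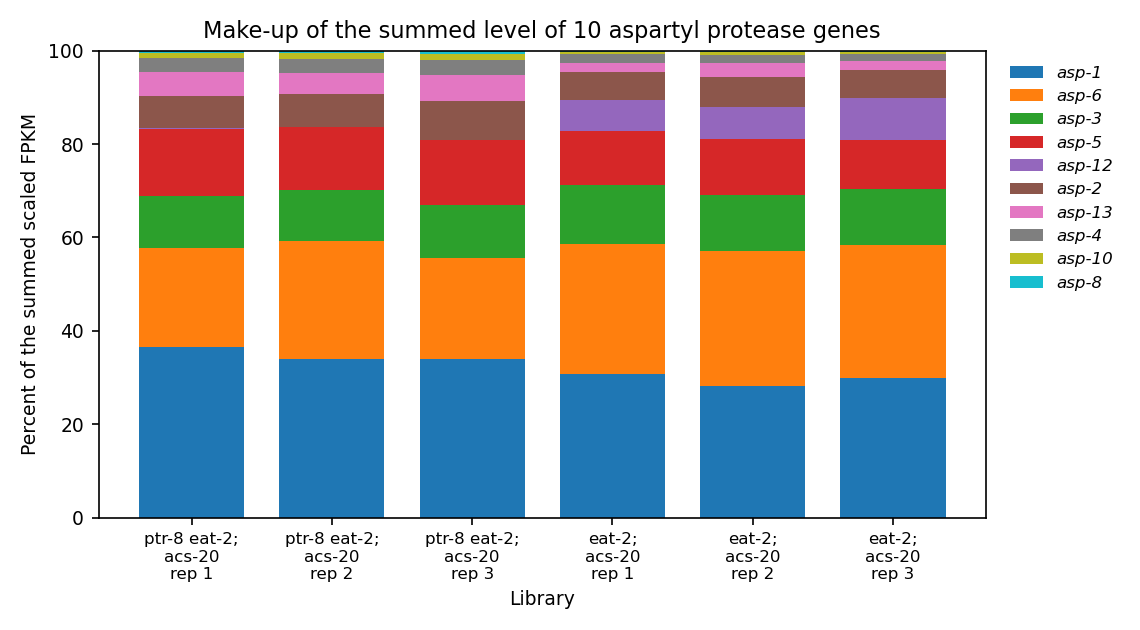
Share of each gene in the summed scaled FPKM of the 10 members, 1 bar per library (percent). asp-1, asp-6, asp-3 and asp-5 make up most of every bar, and the asp-12 band, 6.69% to 9.13% in the DCL33 libraries, is at most 0.107% in the ptr-8 libraries.

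Libraries of 1 strain moved together over the family. Replicate 2 of the ptr-8 strain, which had the largest scaling factor, was the highest of its strain in all 10 members. Replicate 1 of DCL33 was the lowest of its strain in all 10. A list of 12 intestine markers (ges-1, elt-2, act-5, ifb-2 and others, none at 0) averaged, on the log2 scale, 6.36, 6.46 and 6.38 in the ptr-8 libraries and 6.36, 6.65 and 6.42 in the DCL33 libraries. Replicate 2 of the ptr-8 strain and replicate 1 of DCL33 were thus the highest and the lowest of their strains in these markers. The same held for the mean log2 levels of epidermis and neuron markers, V-ATPase genes, cysteine cathepsins and lysosomal membrane genes, so it was not particular to the intestine or to the aspartyl proteases. It did not hold for muscle, pharynx or germline markers, adult-stage collagens or vitellogenins. Nor did it hold for other lysosomal hydrolases, necrosis pathway genes or transcription regulators of the intestine and lysosome. In coelomocyte markers replicates 1 and 2 of DCL33 were level at 2.79. The coefficient of variation over libraries of asp-6 was 21.1% in the ptr-8 strain and 11.5% in DCL33, and its deposited interval reached 0.545% to 1.26% of its value on either side. For asp-13 in the ptr-8 strain the coefficient of variation between libraries was 4.56%, and the half-width of its intervals 4.4% to 4.76%. The first is 1 SD and the half-width was read as 2 standard errors, so the 2 values are not on the same scale. The intervals of asp-13 were also wide for its level. In replicate 1 of the ptr-8 strain they implied 1841 fragments at 378 FPKM, against 20872 at 828 FPKM for asp-3.

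Lists of markers of the intestine and 6 other cell types or tissues had median log2 fold changes from -0.25 (epidermis) to 0.16 (germline). The summed intestine markers ran from 1663 to 1827 in the ptr-8 strain and from 1753 to 2089 in DCL33, overlapping, with a median of -0.05. Muscle markers summed to 2576 to 2891 in the ptr-8 strain and 2495 to 2931 in DCL33, and pharynx markers to 143 to 191 in the ptr-8 strain and 131 to 200 in DCL33. Epidermis markers summed to 594 to 791 in the ptr-8 strain and 638 to 1034 in DCL33, and neuron markers to 367 to 457 in the ptr-8 strain and 427 to 472 in DCL33. Muscle, pharynx, epidermis and neuron sums all overlapped between strains. Germline markers summed to 898 to 996 in the ptr-8 strain and 694 to 835 in DCL33, without overlap. Coelomocyte markers had a median log2 fold change of 0.07. limma called no gene of these 7 lists in either direction. At an unadjusted p below 0.05 there were 5 of 12 intestine markers (4 lower, 1 higher) and 2 of 7 germline markers, both higher. There were also 1 of 6 neuron markers, lower, and 1 of 4 coelomocyte markers, higher. The latter was cup-5, which also stands in the list of lysosomal membrane and trafficking genes. Of all genes tested 20.6% reached that p in either direction. Every ptr-8 library lay below every DCL33 library in 4 of 12 intestine markers and 0 of 7 germline markers, against 14% of all genes tested. The reverse held in 2 of 12 intestine and 5 of 7 germline markers, against 13.7% of all genes tested. The libraries also differed in markers of stage. The mean log2 level of 4 adult-stage collagens was 8.69, 8.23 and 8.62 in the ptr-8 libraries, against 8.22, 7.27 and 6.29 in the DCL33 libraries. That of 5 vitellogenins was 7.06, 6.95 and 7.05 in the ptr-8 libraries, against 4.82, 5.08 and 3.01 in the DCL33 libraries. The list held vit-1, vit-3, vit-4, vit-5 and vit-6, which encode yolk proteins, and their median log2 fold change was 2.79. limma called 2 of the 5 higher, where 0.349% of all genes tested were. All 5 were higher at an unadjusted p below 0.05. In all 5 every ptr-8 library lay above every DCL33 library, against 13.7% of all genes tested. vit-1 averaged 49.9 ± 4.02 in the ptr-8 strain and 6.7 ± 3.91 in DCL33 (limma adjusted p = 0.0295, n = 3 each), and vit-3 averaged 62.6 ± 6.34 in the ptr-8 strain and 7.62 ± 5.26 in DCL33 (limma adjusted p = 0.0466, n = 3 each). vit-1 failed without replicate 1 (0.108), 2 (0.0769) or 3 (0.12) of the ptr-8 strain, and vit-3 passed only without replicate 3 of DCL33 (0.024), at 0.05 to 0.173 in the other fits. None of the collagens was called (2 at an unadjusted p below 0.05). The part of stage, intestine and germline content in the levels of the aspartyl proteases was not tested.

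Of the 9 asp genes outside the member list, 2 reached the filter on level, and neither passed (limma, p adjusted over all genes; 1 of 2 at an unadjusted p below 0.05). asp-17, near asp-1, was at 3.63, 4.33 and 4.12 in the ptr-8 libraries, against 8.14, 7.07 and 13.9 in the DCL33 libraries. The groups did not overlap (log2 fold change -1.04, SE 0.24, limma adjusted p = 0.0956). asp-14, on X, was at 140, 214 and 187 in the ptr-8 libraries, against 197, 443 and 295 in the DCL33 libraries. These overlapped (log2 fold change -0.73, SE 0.32, limma adjusted p = 0.261). asp-7, asp-9, asp-15 and asp-16 stayed below 1 in every library, asp-11 below 1.5, and asp-18 and asp-19 were listed at 0 throughout.

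Among other lysosomal enzymes 5 genes were called lower in the ptr-8 strain, 1 cysteine cathepsin and 4 hydrolases, and 1 hydrolase higher. Of 11 tested cysteine cathepsin genes 1 fell and none rose (median log2 fold change -0.25; 4 lower and 2 higher at an unadjusted p below 0.05). This was cpr-3, of the cathepsin B type, at 10.7, 14.8 and 15.9 in the ptr-8 libraries, against 54.5, 72.1 and 80.7 in the DCL33 libraries (log2 fold change -2.25, SE 0.20, limma adjusted p = 0.00697). cpr-4, at 708 ± 32.7 in the ptr-8 strain and 1101 ± 289 in DCL33 (SD, n = 3 each), did not pass with limma (adjusted p = 0.178). cpr-5 differed in the other direction and did not pass either, at 470 ± 67.7 in the ptr-8 strain and 320 ± 76.2 in DCL33 (log2 fold change 0.57, limma adjusted p = 0.196, n = 3 each). Of 32 tested lysosomal hydrolase genes 4 fell and 1 rose (median -0.16), where 2.03% and 0.349% of all genes tested were called lower and higher. At an unadjusted p below 0.05 there were 14 lower and 2 higher, where 20.6% of all genes tested reached that p in either direction. In 15 of the 32 every ptr-8 library lay below every DCL33 library, against 14% of all genes tested. The reverse held in 4 of the 32, against 13.7% of all genes tested. gba-1, a glucosylceramidase gene, averaged 26.3 ± 1.02 in the ptr-8 strain and 62.9 ± 3.68 in DCL33 (SD, n = 3 each; limma adjusted p = 0.0044). lipl-1, a lysosomal lipase gene, averaged 6.01 ± 2.26 in the ptr-8 strain and 34 ± 2.37 in DCL33 (limma adjusted p = 0.00862, n = 3 each). gba-4, at 18.3 ± 2.41 in the ptr-8 strain and 75.3 ± 22.9 in DCL33, and the carboxypeptidase gene ctsa-1.2, at 106 ± 11.4 in the ptr-8 strain and 223 ± 31.2 in DCL33, also fell (log2 fold changes -1.94 and -1.07, limma adjusted p = 0.0216 and 0.0227). The gene that rose was nuc-1, for the acid DNase that degrades engulfed DNA, at 106, 97.7 and 115 in the ptr-8 libraries, against 39.4, 54.4 and 46.7 in the DCL33 libraries (log2 fold change 1.17, SE 0.14, limma adjusted p = 0.0169).

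cpr-3 and gba-1 passed in all 6 fits with 1 library left out, and lipl-1 failed without replicate 3 of the ptr-8 strain alone (limma adjusted p = 0.0546). nuc-1 failed without replicate 1 (0.0718) or 3 (0.0874) of the ptr-8 strain or replicate 3 of DCL33 (0.0853). gba-4 failed without replicate 1 (0.0744), 2 (0.0645) or 3 (0.0961) of the ptr-8 strain or replicate 3 of DCL33 (0.0892). ctsa-1.2 failed without replicate 1 (0.0711), 2 (0.0638) or 3 (0.0961) of the ptr-8 strain or replicate 3 of DCL33 (0.11).

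Genes that build, acidify or regulate the lysosome gave 1 call. Of 26 genes for lysosomal membrane proteins and trafficking, lmp-2, which encodes a LAMP-like membrane protein, fell (16.6 ± 0.982 in the ptr-8 strain, 26 ± 0.742 in DCL33, limma adjusted p = 0.0295, n = 3 each). It passed in 1 of the 6 fits with a library left out, that without replicate 1 of DCL33, and in the others its limma adjusted p was 0.0869 to 0.114. None of the 26 rose, and their median log2 fold change was 0.02. None of 22 genes for the V-ATPase, the proton pump that acidifies lysosomes, passed with limma (3 at an unadjusted p below 0.05), at a median of -0.08 and a summed level of 7882 to 9055 in the ptr-8 strain and 8150 to 9332 in DCL33. None of 8 genes of the necrosis pathway in which asp-3 and asp-4 act passed (1 at an unadjusted p below 0.05, median -0.04). Of these crt-1, the calreticulin gene, was at 1457 to 1662 in the ptr-8 strain and 1770 to 2158 in DCL33. Among 12 transcription factor genes of the intestine and lysosome, elt-2 and hlh-30 included, none passed (median -0.02). At an unadjusted p below 0.05 there were 3 lower and 1 higher, where 20.6% of all genes tested reached that p in either direction. In 4 of the 12 every ptr-8 library lay below every DCL33 library and in 2 above, against 14% and 13.7% of all genes tested. Those of lowest p were pha-4, elt-4 and unc-62 (log2 fold changes -0.50, -1.27 and 0.30).

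The genes whose pattern over the 6 libraries was most like that of asp-12, among 8261 with lettered names, were ech-9, clec-70 and spp-12. Likeness was the distance between log2 profiles, each centred on its own mean, and these 3 lay at 1.25, 1.71 and 1.94. ech-9, an enoyl-CoA hydratase gene, was at 0.526, 0.914 and 0.276 in the ptr-8 libraries, against 105, 116 and 212 in the DCL33 libraries. The C-type lectin gene clec-70 was at 0.213, 0.793 and 0.884 in the ptr-8 libraries, against 80.5, 99 and 158 in the DCL33 libraries. spp-12, of the saposin-like family, was listed at 0 in each ptr-8 library and at 55.9, 50.9 and 76.9 in the DCL33 libraries. In asp-12, ech-9, clec-70 and spp-12 alike, replicate 3 was the highest of the DCL33 libraries. These 3 genes were picked by likeness over the same libraries, so nothing is read from this. Their log2 fold changes were -6.48, -6.09 and -5.94, and the distance, which is not scaled, favours genes that differ as widely as asp-12. Those most like asp-1 were nas-3, clec-65 and pals-26, at distances of 0.11, 0.15 and 0.15, far closer than the matches of asp-12. clec-65, a C-type lectin gene, was at 60.8, 66.9 and 61.3 in the ptr-8 libraries, against 108 or more in the DCL33 libraries, while nas-3 and pals-26 were at 2.83 or lower in all 6 libraries. At such levels the pseudocount of 1 compresses differences. The ptr-8 means of nas-3 and pals-26 were 38.7% and 39.1% of those of DCL33, against 54.1% for asp-1.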

How the data were processed

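The authors deposited 1 gene table per library, which gives each of 46245 genes an FPKM, the bounds of its interval and a status, per the file headers. FastQC 0.11.5, TopHat2, HTSeq and DESeq2 are listed, with no roles, in the submitters' processing notes. The genome build is not given in the sources used here, and 45990 identifiers matched the Ensembl annotation of WBcel235. Total RNA was made into libraries with a VAHTS Universal V8 kit, per the labels' protocols.

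FPKM values were divided by a trimmed mean of ratios per library (trimming 30% of log ratios and 5% of levels from either end). Genes needed a scaled FPKM of 1 in 3 libraries. Loci under 200 bp (22932) and 10 genes marked FAIL were left out, and 15206 were tested. limma 3.58.1 (R 4.3.3, intensity trend) was fitted to log2(scaled FPKM + 1) with strain as the only term and all 6 libraries. Fold changes (ptr-8 strain minus DCL33) are on this scale and understate changes of low genes. Calls used a Benjamini-Hochberg adjusted p below 0.05 over all genes tested. The procedure was checked on simulated data.

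The half-width of each deposited FPKM interval was read as 2 standard errors to give implied fragments. Relative depth is the median over 5638 genes with 1 transcript and 30 to 2000 implied fragments. Intervals come from 1 library each, so they hold no spread between libraries. Nor are they counting error alone in every gene. In replicate 1 of the ptr-8 strain asp-1, at 2719 FPKM, implied 2268 fragments, and asp-6, at 1567 FPKM, implied 32008. Named genes are all members, other asp genes that reach the filter, in each list at most the 3 with the lowest p, the neighbours of asp-12, the genes most like asp-12 and asp-1, and those of the genotypes. The listed genes gba-4 and ctsa-1.2, and the asp genes below the filter, were named after their values were seen. Members and lists were chosen with earlier results of these data known. Alternatives were scaling by median of ratios or by upper quartile, FPKM as deposited, a pseudocount of 0.1, a block for replicate number, no filter on level, and leaving out each library in turn, with the genes tested kept fixed.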

Additional observations from a re-analysis of the deposited data

How the results depend on the processing

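All 10 members kept their direction under median-of-ratios and upper-quartile scaling, FPKM as deposited, no filter on level, a pseudocount of 0.1 and the replicate block. With a library left out, asp-10 ran from -0.04 to 0.24 and reversed without replicate 2 of the ptr-8 strain (-0.04) and without replicate 1 of DCL33 (-0.0027). asp-13 ran from -0.06 to 0.34 and reversed without replicate 1 of DCL33 (-0.06). Neither was called in any fit. On FPKM as deposited the genes called lower numbered 178, 3 members were called (asp-3, asp-6 and asp-12), and 6 genes of the pathway and marker lists were higher in place of 3. With replicate number as a block, 137 genes (0.901%) were lower and 26 higher, 3 members were called (asp-2, asp-3 and asp-12) and 0 list genes were higher by limma. Deviations of same-numbered libraries correlated at 0.249, 0.0472 and 0.0343. Libraries 2 and 3 of the ptr-8 strain correlated best with another number, so the replicate numbers were not taken as pairs. Library 1 correlated best with its own number (-0.205 and -0.0954 with the others). Replicate 1 was the lowest of its strain in 8 members in the ptr-8 strain and in 10 in DCL33. With the block the SE of asp-8 was 0.11 in place of 0.25, and that of asp-1 was 0.15 in place of 0.14. A shared effect of replicate number on the members was not tested. With 1 library left out, genes lower in the ptr-8 strain numbered 62 to 437 and genes higher 16 to 296. Members called numbered 1 to 6, list genes lower 3 to 9 and list genes higher 0 to 3. The cause of these changes was not tested. asp-12 was called in all 12 alternatives, with log2 fold changes of -7.67 to -7.22. Depth limits the asp genes below the filter on level, where 1 to 21 fragments were implied per library in those above 0.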
